A study of Mus musculus with 12 samples.

Results

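The AP-1 genes examined here are Fos, Fosb, Fosl2, Jun, Junb, Jund and Atf3, 7 of the 17202 genes in the table of normalized counts. They were chosen by symbol, with earlier results of these data known, and all 7 were found in that table. The series holds RNA-seq of cortex from 12 mice of the strain the labels give as C57Bl6, in 4 groups of 3. The study's methods describe the background as mostly C57BL/6J. CD mice carry a heterozygous deletion from Gtf2i to Fkbp6, a model of Williams-Beuren syndrome, and WT mice are wild type. VEH-WT and VEH-CD mice received vehicle in their drinking water, while VERCUR-WT and VERCUR-CD mice received curcumin, a phenol of turmeric, together with verapamil, a blocker of L-type calcium channels. The sample labels call the vehicle mice untreated, and state doses of 60 (curcumin) and 10 (verapamil) mg/kg/day, begun at an age of 8 weeks and kept up for 1 month, with dissection at 16 weeks. The study's methods give a lower dose of verapamil and a younger age at sacrifice, and name the tissue as frontal cortex. According to those methods, the mice were male, carried a Thy1-YFP transgene that labels some projection neurons, and went through behavioral tests before sacrifice. The time from the last test to dissection is not given in the sources used here. A mouse with 1 copy of the deleted interval lacks a copy of each of its genes in every tissue, so the groups do not isolate any single deleted gene.

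AP-1 is a transcription factor made of pairs of basic leucine zipper (bZIP) proteins. Fos proteins pair with Jun proteins and bind the sequence TGACTCA, and Jun and ATF proteins also bind the cAMP response element (CRE), TGACGTCA. Fos, Fosb, Fosl2 and Junb are among the immediate early genes. Neurons transcribe such genes within minutes of calcium entry and MAP kinase signaling, without new protein synthesis. Jund is transcribed steadily in most cells. Jun and Atf3 can also be induced early, and are known besides for their response to cell stress and axon injury. In the cortex, Fos RNA is widely used as a mark of recent neuronal activity and decays fast, whereas a truncated FosB protein is long lived and builds up with repeated activity. Counts per gene do not separate the transcripts of that short form from those of full-length Fosb.

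The stretches upstream of Fos, Fosb, Junb and Jun are shown because the first 3 of these genes gave lower values in VEH-CD than in VEH-WT mice without overlap and Jun did not. Fosl2, which also gave lower values, is not shown, since its RefSeq window lies inside a GENCODE exon of the gene. None of the letters searched was found in that window. Each is the last 150 bases before the RefSeq transcription start on GRCm38.p6, read 5′ to 3′ on the strand of the gene. They are chr12:85473740-85473889 (plus strand) for Fos, chr7:19310046-19310195 (minus) for Fosb, chr8:84978749-84978898 (minus) for Junb and chr4:95052223-95052372 (minus) for Jun. Capitals mark letters that match TGACG, the CRE half-site, TGACGT, its longer form, TGACATCA, a variant CRE known from Jun, or the TATA box letters TATAAA.
Fos: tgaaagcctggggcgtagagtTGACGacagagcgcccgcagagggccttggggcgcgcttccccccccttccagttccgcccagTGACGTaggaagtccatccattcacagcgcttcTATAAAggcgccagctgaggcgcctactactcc
Fosb: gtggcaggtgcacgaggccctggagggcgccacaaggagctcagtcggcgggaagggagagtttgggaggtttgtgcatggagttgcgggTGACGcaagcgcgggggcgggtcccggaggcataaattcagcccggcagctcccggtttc
Junb: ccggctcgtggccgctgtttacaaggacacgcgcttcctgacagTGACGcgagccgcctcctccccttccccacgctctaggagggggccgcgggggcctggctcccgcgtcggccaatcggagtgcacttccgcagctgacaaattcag
Jun: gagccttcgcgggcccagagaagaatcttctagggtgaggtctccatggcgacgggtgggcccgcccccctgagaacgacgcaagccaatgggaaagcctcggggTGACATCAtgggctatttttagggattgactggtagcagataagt

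The search covered both strands of the 250 bases before the RefSeq start of each of the 7 genes. The same length was searched in all 32851 RefSeq windows. For Fosl2 and Atf3 this window lies inside the GENCODE gene, and for Jund it lies upstream of the GENCODE gene and apart from it. TGACG was found upstream of Fos, Fosb, Junb and Atf3, and in 17.8% of all windows. The longer TGACGT, which contains TGACG, was found upstream of Fos, at -66 to -61 from the start, and of Atf3, and in 6.47% of all windows. TGACATCA was found upstream of Jun alone among the 7, at -45 to -38, and in 2.93% of all windows. TATAAA was found upstream of Fos alone, at -33 to -28, against 12.4% of all windows. None of the 7 windows held TGACTCA (4.46% of all windows), TGACGTCA (1.55%), which contains TGACGT and TGACG, or a CArG box (1.47%). TGACG and TGACATCA were added to the search after these stretches had been read. A match is a description of letters and not a binding site, and a missing match says only that the letters are not in these windows.

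Sequencing depth was similar in all mice. The counted reads were recovered from the steps between low values, and ranged from 40290000 to 56480000 per mouse. Normalized counts, the reads of a gene divided by 1 factor per sample, summed to 47430000 to 50770000 per mouse. Gtf2i, which lies in the deletion, was checked first. Its normalized counts were 11579 to 12750 in the 6 WT mice and 5916 to 6729 in the 6 CD mice, so the labelled genotypes match the reads. Differences were tested with limma on log2(normalized count + 1) over the 17111 genes with a mean of at least 10, which included all 7 AP-1 genes. A gene was called at a Benjamini-Hochberg adjusted p under 0.05 with a change of more than 25% in either direction. Nothing in the labels says more of the mice than that they are separate samples, and p values measure the spread between them.

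**Figure D1:**
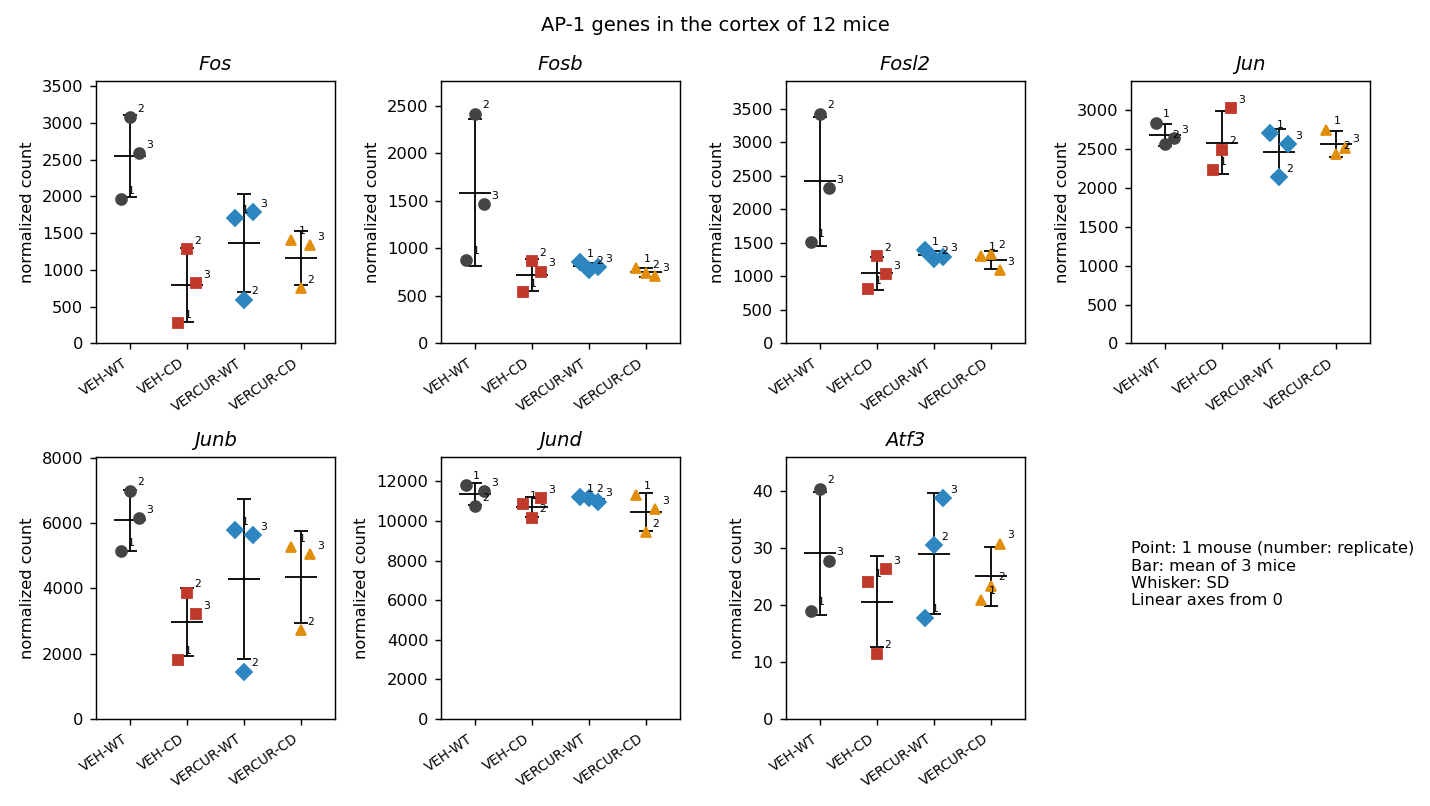
Normalized counts (vertical axes, linear, from 0) of the 7 AP-1 genes in the 12 mice, by group. Points are single mice with their replicate number, horizontal bars are means of 3 mice and whiskers are the SD. For Fos, Fosb, Fosl2 and Junb every VEH-CD mouse sits below every VEH-WT mouse, whereas Jun and Jund stay within a narrow band in all 4 groups.

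Fos, which encodes the founding Fos protein, was the most variable of the 7 genes between mice. Its normalized counts in the 3 VEH-WT mice were 1965, 3081 and 2587, with a mean of 2544 ± 559 (SD, n = 3). In the 3 VEH-CD mice they were 278, 1279 and 819, with a mean of 792 ± 501 (SD, n = 3). The groups did not overlap, and VEH-CD mouse 1 was the lowest of all 12 mice. Under co-treatment, the 3 VERCUR-WT mice had 1704, 596 and 1784, with a mean of 1361 ± 665 (SD, n = 3). The 3 VERCUR-CD mice had 1410, 747 and 1335, with a mean of 1164 ± 363 (SD, n = 3). All 6 co-treated mice were below the lowest VEH-WT mouse, and mouse 2 of each co-treated group lay apart from the other two.

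Fosb, whose products include the short, stable FosB form, was most variable among VEH-WT mice. Its normalized counts there were 881, 2414 and 1465, with a mean of 1587 ± 774 (SD, n = 3). In VEH-CD mice they were 539, 864 and 756, with a mean of 720 ± 166 (SD, n = 3). VEH-WT mouse 1 was only slightly above the highest VEH-CD mouse. The 3 VERCUR-WT mice had 852, 776 and 803, and the 3 VERCUR-CD mice had 794, 738 and 708. The co-treated groups were thus tight, with an SD of 38.6 and 43.5 (n = 3 each), and lay inside the range of VEH-CD mice.

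Fosl2, which encodes the Fos-related protein Fra-2, had the same shape as Fosb. Its normalized counts were 1506, 3428 and 2315 in VEH-WT mice, with a mean of 2417 ± 965 (SD, n = 3). In VEH-CD mice they were 809, 1301 and 1030, with a mean of 1047 ± 246 (SD, n = 3). VEH-WT mouse 2 was the highest and VEH-CD mouse 1 the lowest of the 12 mice for Fos, Fosb and Fosl2 alike. The 3 VERCUR-WT mice had 1392, 1260 and 1292, and the 3 VERCUR-CD mice had 1311, 1341 and 1096. These 6 values were all below the lowest VEH-WT mouse, and 3 of them lay within the range of the VEH-CD group.

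Junb, a Jun protein that often acts against c-Jun, followed Fos rather than Fosb. Its normalized counts were 5131, 6990 and 6147 in VEH-WT mice, with a mean of 6089 ± 931 (SD, n = 3). In VEH-CD mice they were 1818, 3867 and 3214, with a mean of 2966 ± 1047 (SD, n = 3). The lowest VEH-WT mouse was above the highest VEH-CD mouse by more than the SD of either group. The 3 VERCUR-WT mice had 5788, 1456 and 5619, with a mean of 4288 ± 2454 (SD, n = 3). The 3 VERCUR-CD mice had 5253, 2727 and 5040, with a mean of 4340 ± 1401 (SD, n = 3). In both co-treated groups mice 1 and 3 reached the range of VEH-WT or came close to it, and mouse 2 did not.

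Jun and Jund, the other members of the Jun family, were nearly flat. Jun, which encodes c-Jun, ranged from 2139 to 3027 over the 12 mice, with group means of 2685 ± 140, 2584 ± 405, 2470 ± 295 and 2569 ± 164 (SD, n = 3 each) for VEH-WT and VEH-CD and then for VERCUR-WT and VERCUR-CD. Jund ranged from 9417 to 11833, and its group means were 11358 ± 552, 10711 ± 492, 11108 ± 122 and 10438 ± 956 (SD, n = 3 each) in the same order. The highest of the 12 mice exceeded the lowest 1.42-fold for Jun and 1.26-fold for Jund, against 11.1-fold for Fos, 4.80-fold for Junb, 4.48-fold for Fosb and 4.24-fold for Fosl2. Atf3, an ATF protein that pairs with Jun and is induced by stress, rested on 13 to 45 reads per mouse. Its normalized counts ranged from 19.1 to 40.4 in VEH-WT, 11.5 to 26.4 in VEH-CD, 17.8 to 38.8 in VERCUR-WT and 20.9 to 30.8 in VERCUR-CD mice, and all 4 groups overlapped.

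To order the genes by level, normalized counts were divided by the length of the merged exons in kb. On this scale the median over the 12 mice was 6624 for Jund, 2210 for Junb, 805 for Jun, 583 for Fos, 135 for Fosl2, 128 for Fosb and 11.7 for Atf3. Jund was above Junb, Fos above Fosl2 and Fosb above Atf3 in 12 of 12 mice. Junb was above Jun in 11 mice and Jun above Fos in 10, while Fosl2 was above Fosb in 7 of 12 and the pair did not separate. Because Jund was steady, the make-up of the set moved with Fos and Junb. Jund gave 52.2 to 62.5% of the summed level per kb in VEH-WT mice and 65.0 to 78.4% in VEH-CD mice. The corresponding ranges were 60.5 to 78.6% in VERCUR-WT and 62.6 to 69.0% in VERCUR-CD mice. Fos, Fosb and Fosl2 together gave 9.97 to 16.6% in VEH-WT, 3.48 to 8.71% in VEH-CD, 5.96 to 9.40% in VERCUR-WT and 7.02 to 7.98% in VERCUR-CD mice. These are shares of RNA, and they say nothing of the amounts of protein or of dimers.

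**Figure D2:**
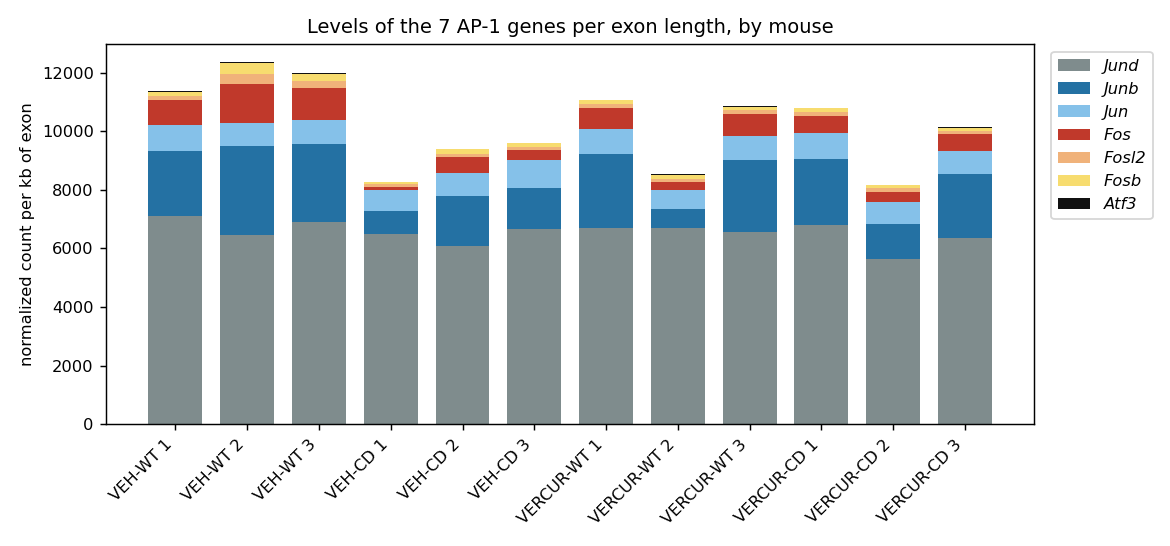
Stacked normalized counts per kb of merged exon (vertical axis, linear, from 0) of the 7 AP-1 genes in each of the 12 mice. The Jund segment is of similar height throughout, and the shortest stacks, VERCUR-CD mouse 2, VEH-CD mouse 1 and VERCUR-WT mouse 2, have small Junb and Fos segments.

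The first comparison asks what the deletion does without treatment. Fos, Fosl2, Junb and Fosb had lower values in VEH-CD than in VEH-WT mice, by log2 differences of -1.91 (SE 0.51), -1.15 (SE 0.24), -1.10 (SE 0.46) and -1.05 (SE 0.27). None of the 7 genes was called, against 44 of the 17111 genes tested, or 0.257%. The adjusted p in limma was 0.0760 for Fosl2, 0.165 for Fosb, 0.181 for Fos and 0.372 for Junb. Without adjustment these 4 genes had p values of 0.000333, 0.00211, 0.00267 and 0.0331 in limma. Of all genes, 6.73% were lower at an unadjusted p under 0.05, and 11.4% were lower with groups that did not overlap. The median log2 difference of the 7 genes was -1.05, against -0.0028 for all genes. The log2 difference of Fos was the 20th largest of the 17111 in size. The set was chosen with earlier results of these data known, so these shares and ranks describe it and do not test it. Jun gave -0.07 (95% interval -0.31 to 0.17, adjusted p = 0.841), Jund -0.08 (-0.23 to 0.06, adjusted p = 0.648) and Atf3 -0.50 (-1.31 to 0.32, adjusted p = 0.626) in limma. The intervals of Jun and Jund exclude differences of the size measured for Fos, whereas that of Atf3 is wide. Since the tissue is bulk cortex, fewer cells that express a gene and less RNA per cell cannot be told apart.

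For Fosb and Fosl2, the lack of a call depended on 1 mouse of the 12, whereas Fos and Junb were called with no mouse left out singly. Without VEH-WT mouse 1, the VEH-WT mouse with the lowest Fos, Fosb and Fosl2, 2 genes were called in limma, Fosb at -1.41 (adjusted p = 0.0160) and Fosl2 at -1.45 (adjusted p = 0.00869). Leaving out the lowest control widens these differences, and 47 of all genes were called there. With other mice left out, the adjusted p in limma rose as far as 0.501 for Fos, 0.505 for Fosb, 0.332 for Fosl2 and 0.759 for Junb. With each of the 12 mice left out in turn, the log2 difference ranged from -2.39 to -1.29 for Fos, from -1.41 to -0.68 for Fosb, from -1.45 to -0.86 for Fosl2 and from -1.32 to -0.78 for Junb.

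**Figure D3:**
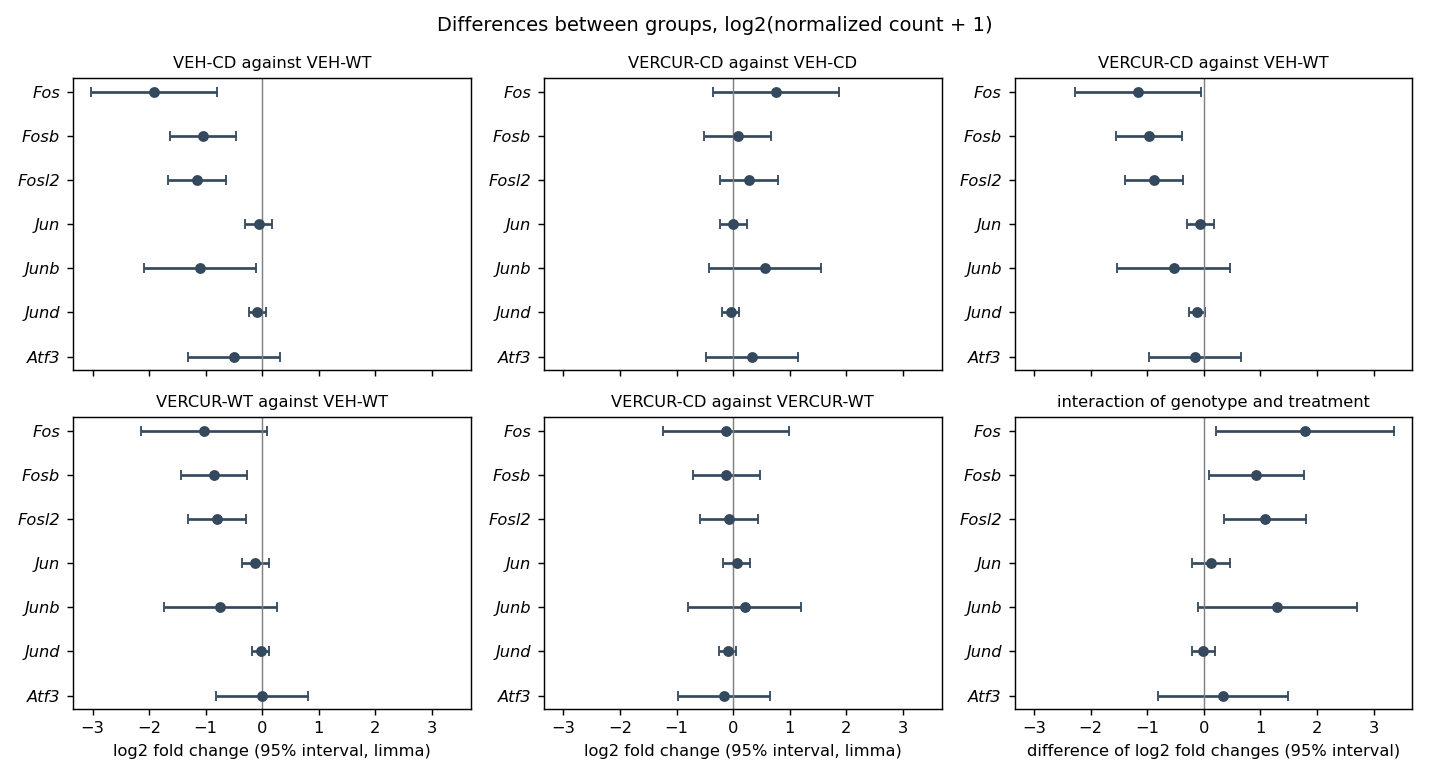
Difference between groups in log2(normalized count + 1) (horizontal axes) for the 7 AP-1 genes, with 95% intervals from limma, in 5 comparisons and the interaction. In VEH-CD against VEH-WT mice the intervals of Fos, Fosb, Fosl2 and Junb lie below 0, and in VERCUR-CD against VERCUR-WT mice all 7 intervals include 0.

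The next comparison asks whether co-treatment altered these genes in CD mice. In VERCUR-CD against VEH-CD mice no AP-1 gene was called and none had an unadjusted p under 0.05 in limma. No gene of the 17111 was called (0%), and 605 (3.54%) had an unadjusted p under 0.05. The log2 difference was 0.76 for Fos (95% interval -0.36 to 1.87), 0.56 for Junb (-0.43 to 1.55), 0.28 for Fosl2 (-0.24 to 0.79) and 0.08 for Fosb (-0.51 to 0.67). All 4 intervals include 0. For Junb the interval also includes an increase as large as the difference between the vehicle groups, whereas for Fos, Fosl2 and Fosb it ends below that size, for Fos only just. The values of Fos and Junb moved with single mice, from 0.13 without VEH-CD mouse 1 to 1.23 without VEH-CD mouse 2 for Fos, and from 0.24 without VEH-CD mouse 1 to 0.86 without VERCUR-CD mouse 2 for Junb. Jun, Jund and Atf3 gave 0.0011, -0.04 and 0.33. The groups overlapped for all 7 genes, whereas they did not for 8.34% of all genes.

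Against VEH-WT mice, the VERCUR-CD mice were lower in Fos by -1.16 (SE 0.51), in Fosb by -0.97 (SE 0.27) and in Fosl2 by -0.88 (SE 0.24) on the log2 scale. These 3 genes did not overlap between the groups, as 7.33% of all genes did in that direction. None of the 7 was called, against 0.199% of all genes, and the adjusted p in limma was 0.562, 0.350 and 0.333 in the same order. The unadjusted p was under 0.05 for these 3 genes and for 4.76% of all genes in that direction. Without VEH-WT mouse 1, Fosb at -1.33 (adjusted p = 0.0220) and Fosl2 at -1.18 (adjusted p = 0.0296) were called in limma, with 39 over all genes. Junb gave -0.54 (95% interval -1.53 to 0.46, adjusted p = 0.795), with overlapping groups.

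Co-treatment was also given to WT mice. In VERCUR-WT against VEH-WT mice, Fos, Fosb and Fosl2 were lower by log2 differences of -1.04 (SE 0.51), -0.85 (SE 0.27) and -0.80 (SE 0.24), again without overlap, against 5.25% of all genes. None was called, with an adjusted p of 0.951, 0.944 and 0.944 in limma, and 0% of all genes were called, where 893 of the 17111 genes (5.22%) had an unadjusted p under 0.05. Fosb and Fosl2 had one, as 3.25% of all genes did in that direction. Junb gave -0.74 (95% interval -1.73 to 0.25), where its spread came from mouse 2 of the co-treated group. The comparisons with VEH-WT share the same 3 control mice, among them mouse 2 with the highest Fos, Fosb, Fosl2 and Junb of the series, and so are not independent of each other.

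Between the co-treated genotypes, VERCUR-CD against VERCUR-WT, the log2 differences of the 7 genes lay between -0.16 (Atf3) and 0.20 (Junb). None was called, none had an unadjusted p under 0.05 and none was without overlap, while of all genes 0.146% were called, 4.1% had such a p and 7.74% were without overlap. Fos gave -0.12 with a 95% interval of -1.23 to 0.99, which still allows a difference in either direction. The difference between the genotype effects in co-treated and in vehicle mice was tested as an interaction. It was 1.79 (SE 0.73) for Fos, 1.30 (SE 0.65) for Junb, 1.08 (SE 0.33) for Fosl2 and 0.93 (SE 0.38) for Fosb on the log2 scale. The adjusted p was 0.816 for each of these 4 genes in limma, and 0% of all genes were called, with 1035 genes (6.05%) at an unadjusted p under 0.05. Fos, Fosl2 and Fosb had an unadjusted p under 0.05, as 3.72% of all genes did in that direction. A genotype difference that depends on treatment was therefore not shown for any AP-1 gene.

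Across mice, the 4 variable genes fell into pairs by Pearson's r, but less clearly by rank. Pearson's r of the log2 values over the 12 mice was 0.92 for Fos with Junb and 0.98 for Fosb with Fosl2. When each group's mean was subtracted first, r remained 0.92 and 0.98. Across the pairs it was lower. Over the 12 mice it was 0.76 for Fos with Fosb, 0.79 for Fos with Fosl2 and 0.61 for Fosl2 with Junb. After the same subtraction it was 0.54, 0.52 and 0.34 in the same order. Spearman's rank correlation was 0.94 for Fos with Junb. It was 0.84 for Fosb with Fosl2 and also, across the pairs, for Fos with Fosb. The values of a mouse share 1 library and 1 dissection, so these are descriptions over n = 12. VERCUR-WT mouse 2 and VERCUR-CD mouse 2 show the split, since their Fos and Junb were the lowest of their groups by far. Their Fosb was 776 and 738, close to the other mice of each group.

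**Figure D4:**
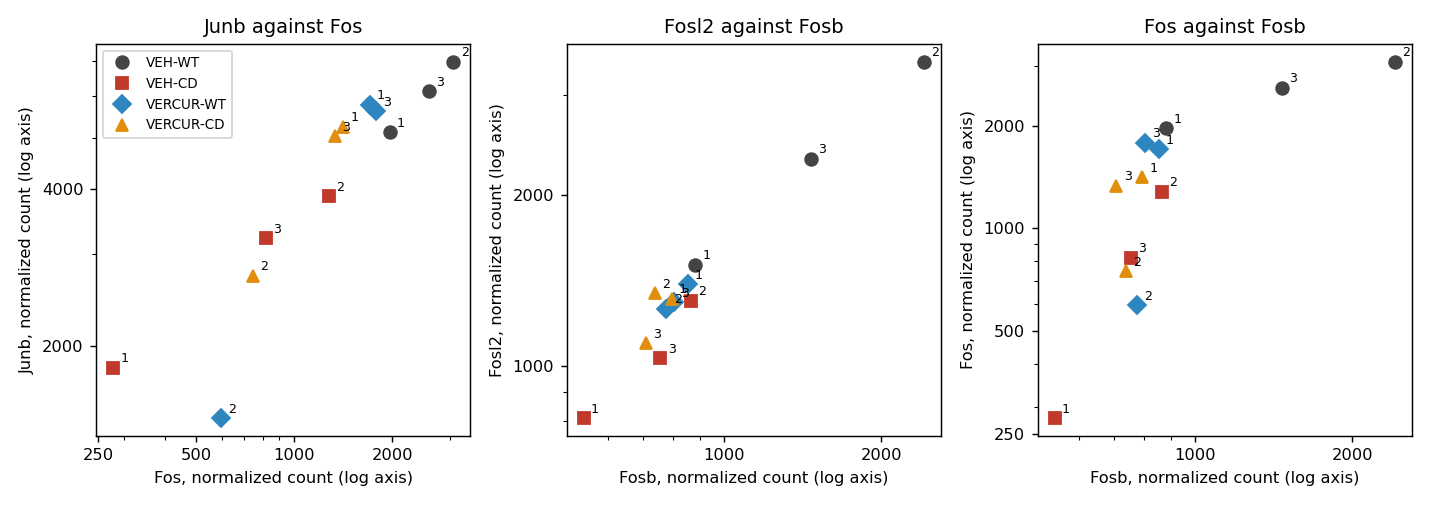
Normalized counts of Junb against Fos, Fosl2 against Fosb, and Fos against Fosb, on log axes, with 1 point per mouse and its replicate number. Junb follows Fos and Fosl2 follows Fosb over all mice, whereas mouse 2 of both co-treated groups falls below the others in Fos at the same Fosb.

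The genes most like each of these, by Pearson's r of log2 values over the 12 mice, divided in the same way. Junb was closest to Nr4a1 (r = 0.97), Dusp1 (0.97) and Arc (0.96), and Fos to Nr4a1 (0.96), Egr2 (0.95) and Nup54 (0.95). Nr4a1 and Egr2 encode transcription factors induced by activity, Dusp1 a phosphatase of MAP kinases, Arc a protein of synapses and Nup54 a nuclear pore protein. Fosb was closest to Dnajb1, a co-chaperone of heat shock protein 70 (0.95), Gm7694 (0.94) and Fbxo46 (0.94). Fosl2 was closest to Fbxo46 (0.96), Hmox1, which encodes heme oxygenase (0.95), and Srf (0.95). Srf encodes serum response factor, which binds CArG boxes. For the mean of the 7 standardized profiles the closest genes were Gadd45b (0.99), Sik1 (0.96), Arl4d (0.94), Sertad1 (0.94) and Egr2 (0.94). These are the highest of all genes tested and were found by ranking, and say nothing of shared function.

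Other genes of the pathway were examined in lists, which were also chosen with earlier results of these data known. Of 23 other immediate early genes, all 23 had log2 differences below 0 in VEH-CD against VEH-WT mice, with a median of -0.96, where the median of all genes was -0.0028. Called lower were 3 of them, against 0.205% of all genes in that direction. In limma 16 had an unadjusted p under 0.05, all lower, against 6.73% of all genes in that direction. The 3 were Sik1, a kinase that restrains CREB coactivators (-1.60, adjusted p = 0.0285 in limma), and the Krüppel-like factors Klf4 (-0.96, adjusted p = 0.0322) and Klf2 (-0.96, adjusted p = 0.00769). Sik1 had normalized counts of 937, 1622 and 1180 in VEH-WT and 334, 444 and 432 in VEH-CD mice, with an SD of 347 and 60.7. Egr2 (-2.37, adjusted p = 0.105) and Arc (-2.24, adjusted p = 0.233) had the largest differences and wide spread, and Gadd45g (-0.14) and Nr4a2 (-0.25) the smallest. In VERCUR-CD against VEH-WT mice Klf2 was called at -0.79 (adjusted p = 0.0342 in limma), the only one of the 23, where 0.146% of all genes were called lower. There 13 of the 23 had an unadjusted p under 0.05, all lower, against 4.76% of all genes in that direction. In the other comparisons none of the 23 was called in limma, where 0.146% of all genes were called in VERCUR-CD against VERCUR-WT and 0% in the others. Unadjusted p values under 0.05 were found for 2 of the 23, all higher, in VERCUR-CD against VEH-CD (3.54% of all genes in either direction). None was found in VERCUR-CD against VERCUR-WT (4.1%). They were found for 12, all lower, in VERCUR-WT against VEH-WT (3.25% of all genes in that direction) and for 13, all higher, in the interaction (3.72%). In VERCUR-CD against VEH-CD the median of the 23 was 0.27, against 0.0028 for all genes, and 2 were below 0. There 4 of the 23, among them Sik1, Klf2 and Klf4, were higher without overlap, against 8.34% of all genes in either direction.

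**Figure D5:**
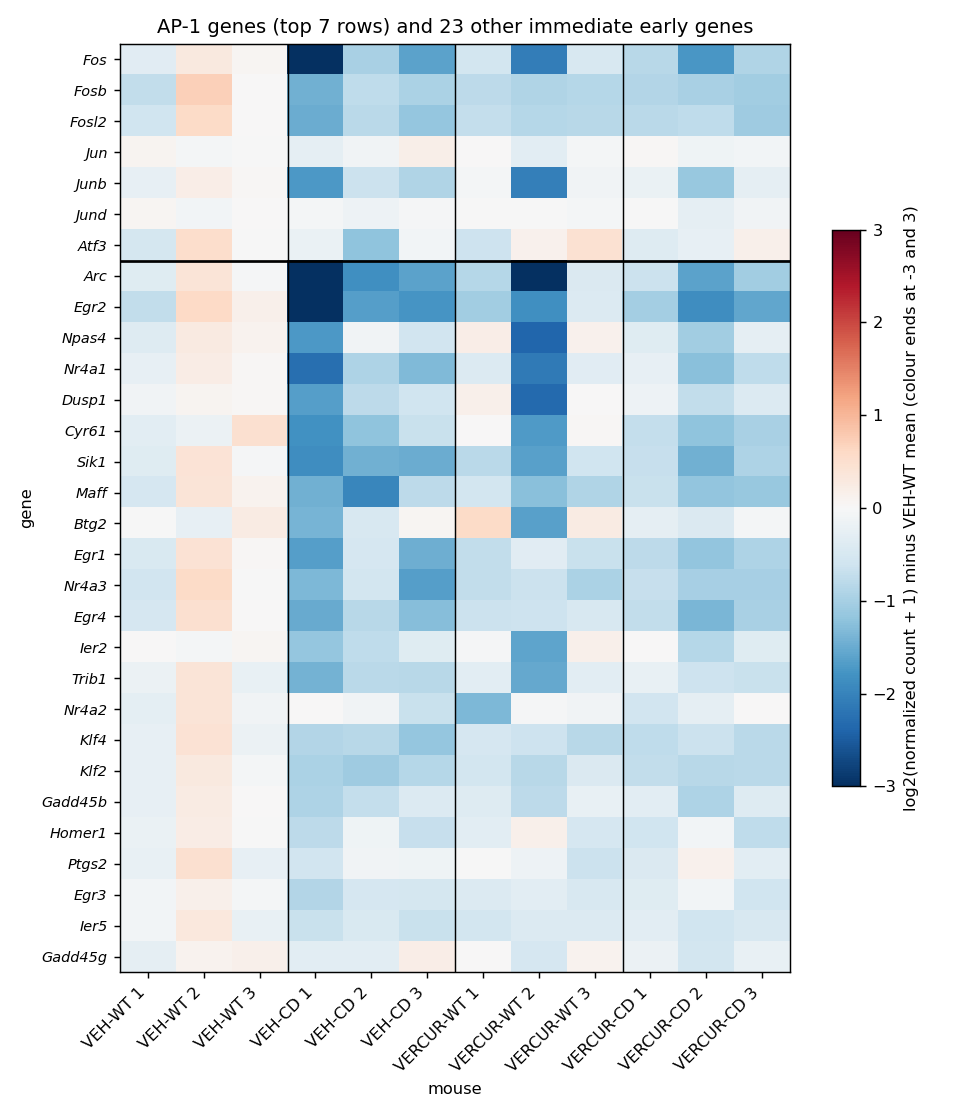
Colours give log2(normalized count + 1) minus the VEH-WT mean, blue for lower and red for higher, for the 7 AP-1 genes (above the line) and 23 other immediate early genes in the 12 mice. VEH-CD mouse 1 and VERCUR-WT mouse 2 are the darkest blue columns, and the rows of Jun and Jund are nearly white.

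Of the other bZIP partners, 10 of 13 listed genes were tested in VEH-CD against VEH-WT mice. None was called, against 0.257% of all genes, and the median log2 difference was -0.19. Unadjusted p values under 0.05 were found for 4 of them, all lower, against 6.73% of all genes in that direction. Maff, a small Maf protein that is also one of the immediate early genes, gave -1.40 (adjusted p = 0.130 in limma). Atf7 (-0.10) and Batf3 (0.06) were at the other end. Fosl1, Batf and Batf2 were not analysed here.

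Among 25 genes that act upstream of Fos and Jun, 1 was called in VEH-CD against VEH-WT mice, the deleted gene Gtf2i (-0.95, adjusted p = 1.55e-06 in limma). Gtf2i encodes TFII-I, known to bind upstream of Fos. Of all genes, 0.257% were called. The median log2 difference of the list was -0.09, with 4 genes lower at an unadjusted p under 0.05, as 6.73% of all genes were, and 1 higher. Srf had normalized counts of 2189, 2609 and 2470 in VEH-WT and 1770, 2018 and 1731 in VEH-CD mice. Its log2 difference was -0.40 (SE 0.08, adjusted p = 0.0697 in limma), without a call and without overlap. The MAP kinases Mapk3 (0.20, adjusted p = 0.271) and Mapk8 (-0.06, adjusted p = 0.844) were not called, nor were Elk1 (0.17, adjusted p = 0.466), the partner of Srf, and Creb1 (-0.21, adjusted p = 0.533), which binds CREs.

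Genes known as AP-1 targets were spread around 0. Of 19 listed, 14 were tested in VEH-CD against VEH-WT mice, and the median log2 difference was 0.03. None was called in limma, against 0.257% of all genes, and 1 was lower at an unadjusted p under 0.05, as 6.73% of all genes were. Nts, the gene of neurotensin, gave -0.33, Plau, a plasminogen activator, 0.14 and Vim, an intermediate filament gene, 0.09.

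Markers of cell types and of neighbouring tissue were examined beside these results. The 10 marker lists, of 5 or 6 genes each, were all in the table with no marker at 0 in any mouse. No marker was called in VEH-CD against VEH-WT mice, against 0.257% of all genes. Markers of excitatory neurons summed to 284634 to 308248 in VEH-WT and 293873 to 302230 in VEH-CD mice. Those of inhibitory neurons summed to 42452 to 46331 in VEH-WT and 37768 to 40833 in VEH-CD mice, without overlap. Of all single genes, 11.4% were lower without overlap. In limma 2 of the 6 had an unadjusted p under 0.05, counted in either direction. Of all genes, 6.73% were lower at such a p, which is a share in 1 direction only. Markers of microglia summed to 14315 to 16974 and 15680 to 18161. The mean log2 value of each list was set beside log2 Fos over the 12 mice. Its r was 0.51 for inhibitory neurons, -0.68 for microglia and -0.60 for endothelial cells. The other lists lay between -0.20 (astrocytes) and 0.39 (choroid plexus). The part of these cell types in the AP-1 values was not tested.

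Markers of striatal neurons, cells that cortex should lack, varied most. Their sum ranged from 11558 to 22244 in VEH-WT, 11108 to 25540 in VEH-CD, 5445 to 25984 in VERCUR-WT and 5792 to 19341 in VERCUR-CD mice, and 1 mouse of each group stood above the other two. The r of the mean log2 value of these markers with log2 Fos over the 12 mice was 0.094. With the striatal markers as a covariate, the log2 difference between VEH-CD and VEH-WT mice was -1.92 for Fos, -1.05 for Fosb, -1.15 for Fosl2 and -1.10 for Junb, and none was called. Without the 4 mice highest in these markers, which leaves 2 mice per group, the 4 differences were -1.26, -0.85, -0.97 and -0.76 with an adjusted p of 0.839, 0.865, 0.736 and 0.9998 in limma. Among the 4 mice left out is VEH-CD mouse 1, the lowest in Fos, Fosb and Fosl2. In VERCUR-CD against VEH-CD mice, leaving out the same 4 mice gave a log2 difference of -0.036 for Fos, against 0.76 with all mice.

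By the GENCODE M21 annotation of GRCm38, Fos lies at chr12:85473890-85477273 (plus strand), Fosb at chr7:19302696-19310051 (minus), Fosl2 at chr5:32135801-32157842 (plus) and Atf3 at chr1:191170296-191218039 (minus). Jun lies at chr4:95049034-95052222 (minus), Junb at chr8:84974484-84978718 (minus) and Jund at chr8:70698949-70700616 (plus). None lies in the deleted interval on chromosome 5. Jun, Junb and Jund each overlap a gene on the other strand that is also in the table, and whether reads were counted by strand is not given in the sources used here. These neighbours had mean normalized counts of 14.0 (Junos), 8031 (Prdx2) and 230 (Gm11175), with log2 differences of 0.11, 0.06 and 0.02 between VEH-CD and VEH-WT mice. Prdx2 thus had more reads than Junb, and reads from their shared end cannot be assigned to either with certainty.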

How the data were processed

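RNA-seq libraries of 12 mice were used. Paired-end reads were mapped by the authors with STAR 2.5.3a (GRCm38), who deposited normalized counts per gene. The counting program, annotation and normalization method are not given in the sources used here. The deposited values are counts divided by 1 factor per sample: 100% of low values were whole multiples of 1 step within 0.1 read, which gives the depth. Intervals and p values rest on 3 mice per group. Columns were assigned to mice by the identifier in each sample title. The other 2 tables hold the authors' expression relative to VEH-WT for selected genes and were not used.

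Linear models (limma 3.58.1, R 4.3.3) used log2(normalized count + 1) of the 17111 genes with a mean of at least 10 over all 12 mice, with 4 group means and an intensity trend, and p values were two-sided. The fit was tested on simulated data first. Low genes have their fold changes understated on this scale. The smallest two-sided p of an exact permutation of 3 against 3 mice is 0.1, and such tests were not run. No library was found to be deposited in duplicate.

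The genes named are the 7 AP-1 genes, for each the 3 genes with the most similar profile and for their mean the 5 most similar, and from each list the genes called in any comparison, the 2 highest and 2 lowest in VEH-CD against VEH-WT, and Srf, Elk1, Creb1, Mapk3, Mapk8 and Gtf2i. Some genes that this rule names are not reported here. The members and lists were chosen with earlier results of these data known. Overlapping genes, and Nr4a2, Gadd45g and others at the ends of a list, are named by the same rule or as a limit on a member. Exon lengths and positions are from GENCODE M21 and upstream windows from RefSeq (GRCm38.p6), where all 7 genes were matched. The RefSeq start of Fosb, Fosl2, Junb, Jund and Atf3 differs from the GENCODE gene start. The window of Jund, chr8:70697489-70697738, ends well before the GENCODE start at 70698949. That of Atf3, chr1:191183334-191183583, lies inside the GENCODE gene, chr1:191170296-191218039. Symbols listed for more than 1 gene (19) hold none of the 7. The alternatives were other pseudocounts (0.1 and 5), filters (none, and a mean of at least 50), scalings, samples in the fit, no trend, sample weights, removal of single values, unadjusted p, the replicate block and leaving out each mouse.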

Additional observations from a re-analysis of the deposited data

How the results depend on the processing

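No AP-1 gene was called under other pseudocounts, filters, scalings, the groups compared alone, no trend or the replicate block. For VEH-CD against VEH-WT, sample quality weights called 3 genes (Fos, Fosb and Fosl2), and raised the calls over all genes from 44 to 349. Dropping the value farthest from the median wherever a group's CV reached 20% called 3 (Fos, Fosl2 and Junb). Unadjusted p values gave 4, with 801 over all genes. The removal of values lowers the spread by construction and raised the calls over all genes from 44 to 972. It called 1 gene (Junb) in VERCUR-CD against VEH-CD, with 241 over all genes, and 3 in VERCUR-CD against VEH-WT, with 840. It called 1 (Fos) in VERCUR-WT against VEH-WT, with 649, and 2 (Fos and Fosl2) in the interaction, with 492. Unadjusted p values gave 3, 2 and 3 in the last 3 of these comparisons, with 600, 406 and 1035 over all genes. When each mouse was left out in turn, from 0 to 2 genes were called in VEH-CD against VEH-WT and in VERCUR-CD against VEH-WT, the 2 without VEH-WT mouse 1, and 0 in the other comparisons.

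The differences whose direction reversed were not called with all mice and values. With sample quality weights they were Jun -0.047 in VERCUR-CD against VEH-CD, Atf3 0.13 in VERCUR-CD against VEH-WT, Atf3 0.12 in VERCUR-WT against VEH-WT, Fos 0.053 and Atf3 0.0071 in VERCUR-CD against VERCUR-WT, and Jund 0.013 in the interaction. With single values removed they were Atf3 0.12 in VEH-CD against VEH-WT, Fosb -0.12 and Atf3 -0.18 in VERCUR-CD against VEH-CD, Atf3 0.56 in VERCUR-WT against VEH-WT, Junb -0.15 in VERCUR-CD against VERCUR-WT and Atf3 -0.74 in the interaction. Quantile normalization gave Jun -0.0090 in VERCUR-CD against VEH-CD. The following 3 settings were chosen after seeing the data. Striatal markers as a covariate gave Atf3 0.092 in VERCUR-WT against VEH-WT. Leaving out the 4 mice highest in those markers gave Jun 0.024 in VEH-CD against VEH-WT, Fos -0.036, Fosb -0.16 and Jun -0.15 in VERCUR-CD against VEH-CD, and Atf3 0.19 in VERCUR-CD against VERCUR-WT. limma's voom on the recovered reads called 36 genes in VEH-CD against VEH-WT and no AP-1 gene, with Jun -0.025 in VERCUR-CD against VEH-CD and Atf3 0.038 in VERCUR-WT against VEH-WT. The cause of these reversals was not tested.

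With 1 mouse left out, the log2 difference ranged from -0.19 to 0.034 (Jun) in VEH-CD against VEH-WT, and from -0.12 to 0.22 (Fosb), -0.098 to 0.12 (Jun), -0.10 to 0.032 (Jund) and -0.024 to 0.54 (Atf3) in VERCUR-CD against VEH-CD. Atf3 ranged from -0.43 to 0.098 in VERCUR-CD against VEH-WT and from -0.27 to 0.30 in VERCUR-WT against VEH-WT. In VERCUR-CD against VERCUR-WT the ranges were -0.64 to 0.17 (Fos), -0.13 to 0.014 (Fosl2), -0.038 to 0.13 (Jun), -0.45 to 0.54 (Junb) and -0.46 to 0.078 (Atf3). In the interaction they were -0.069 to 0.063 (Jund) and -0.018 to 0.60 (Atf3).

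The replicate numbers showed no pairing of the mice, though this does not exclude one. The r of deviations from group means was -0.35 to 0.27 over 18 pairs with the same number. It was -0.23 to 0.32 over 36 pairs with different numbers, and 1 of 12 mice was closest to one with its own number. With the replicate block no AP-1 gene was called, and Fosl2 had an adjusted p of 0.0520 in VEH-CD against VEH-WT. Neither edgeR nor DESeq2, listed as alternatives, was run, and voom on the recovered reads was the only count-based fit. With 3 mice per group, the 95% interval of Fos in VEH-CD against VEH-WT spans -3.03 to -0.80, and Atf3 rests on 13 to 45 reads per mouse.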

Other observations

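The less variable members had their own nearest profiles over the 12 mice, by Pearson's r of log2 values. Jund was closest to Sst, the gene of somatostatin (r = 0.96), Apip (0.91) and 2210016F16Rik (0.89). Sst ranged from 8453 to 10603 normalized counts, and VERCUR-CD mouse 2 was the lowest mouse for both genes. Jun was closest to Lrmda (0.85), Kif7 (0.84) and Depdc1b (0.84), of which Lrmda and Depdc1b had mean normalized counts of only 15.6 and 14.3. Atf3 was closest to BC002163 (0.89), Dbx2 (0.89) and Smim3 (0.86). These r values are the highest among the genes tested, and were not tested further.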
